A study of Mus musculus with 2 samples.

Results

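The Myc, Max and Mxd network is a set of 10 genes for transcription factors of the basic helix-loop-helix leucine zipper (bHLH-zipper) class: Myc, Mycn, Mycl, Max, Mxd1, Mxd3, Mxd4, Mxi1, Mnt and Mga. They were chosen by symbol and found by Ensembl gene identifier, and all 10 were among the 43346 gene entries measured. Polyadenylated RNA of CH12.LX, an immortalized B cell lymphoma line of mouse strain B10.H-2aH-4bp/Wts labelled female, was read from single ends. The labels give 2 libraries, biological replicates 1 and 2 of separate biosamples, with 22986749 and 25701557 expected counts (estimated read counts per gene). Both libraries belong to 1 group for which the labels name no treatment, so the values describe the network in a single line and how far its 2 libraries differed. RNA was measured and not protein, and spread between libraries is the spread between these samples alone.

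Max is the shared dimer partner of the network. Myc, Mycn and Mycl bind DNA as heterodimers with Max at the E-box motif and promote transcription, while the Mxd proteins (with Mxi1, also called Mxd2) and Mnt compete for Max and recruit the Sin3 corepressor. Mga also pairs with Max and belongs to a Polycomb repressive complex, and in germinal centre and lymphoma B cells Myc is known as a driver of growth and is often deregulated by translocation.

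The RNA of CH12.LX was dominated by Myc and Max among the 10 genes. Levels are in TPM, a transcript abundance corrected for gene length and library depth, as mean ± SD over n = 2. Myc stood at 131 ± 0.0495 TPM and Max at 83.8 ± 7.83 TPM. An SD of 2 values does not cover the choice of estimate, which moved the Myc level further, as given in the closing section. Myc and Max ranked 1059 and 1713 among 21474 protein-coding genes by mean TPM. The repressor partners Mga (23.6 ± 5.25 TPM) and Mnt (22.5 ± 0.0283 TPM) followed, and the 4 Mxd genes together reached 17.51 TPM in replicate 1 and 12.55 TPM in replicate 2. Mycn had no read and Mycl almost none. At 1 TPM or more in both libraries, 7 of the 10 genes were detected, against 48.0% of protein-coding genes and 27.4% of all gene entries.

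A measured feature of the network that carries its own sequence was the alternative second exon of Max, printed here because its inclusion changes the protein between the short and long forms. Max lies on the reverse strand of mm10 chromosome 12. Max-202 holds a coding exon of 27 bases (9 codons) at chr12:76961263-76961289, which Max-201 lacks. The coding sequence is 453 bases (151 codons, the stop left out) in Max-201 and 480 bases (160 codons) in Max-202. The sequences below run 5′ to 3′ on the Max strand, from the GENCODE M21 transcripts, with 30 flanking bases on each side and the exon in capitals.
Max-201: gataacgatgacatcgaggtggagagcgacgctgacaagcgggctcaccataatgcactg
Max-202: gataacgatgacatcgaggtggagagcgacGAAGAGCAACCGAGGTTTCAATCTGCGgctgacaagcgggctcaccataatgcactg

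The Myc family genes came first in the order of roles. Myc (ENSMUSG00000022346.10, chr15:61985391-61990374, + strand), the growth-promoting factor of the network, had 131.01 TPM in replicate 1 and 131.08 TPM in replicate 2, from 4414 and 4895 expected counts. The libraries were nearly equal on this scale. Myc held 99.6% and 99.7% of the summed TPM of Myc, Mycn and Mycl. Mycn (ENSMUSG00000037169.10, chr12:12936093-12941914, - strand), the paralog known from neural tumours, had 0 counts in either library. A limit of 3 counts over both corresponds to 0.0452 TPM. Mycl (ENSMUSG00000028654.9, chr4:122995652-123002485, + strand), the paralog first found in lung cancer, had 0.50 and 0.33 TPM. Its 18 and 11 counts had exact Poisson 95% intervals of 10.7 to 28.4 and 5.49 to 19.7. These intervals overlap, which is no test of a difference, and they are not scaled for library depth. Mycl did not pass the exact binomial test described below. Such intervals and limits cover counting error only.

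Max (ENSMUSG00000059436.8, chr12:76937269-76962201, - strand), the obligate partner, had 78.28 TPM in replicate 1 and 89.35 TPM in replicate 2. It was below Myc in both libraries. Myc stood at 1.67 and 1.47 times Max, and the 9 possible partners summed to 2.45 and 2.17 times Max. Max thus held 29.0% and 31.6% of the TPM of all 10 genes, and Myc 48.6% and 46.3%. These are ratios of RNA levels and give no ratio of proteins.

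The antagonists were led by the genes outside the Mxd group proper. Mnt (ENSMUSG00000000282.8, chr11:74830920-74845725, + strand), the Sin3-recruiting repressor described as the broadly expressed antagonist of Myc, had 22.48 and 22.52 TPM from 1676 and 1866 counts. Mga (ENSMUSG00000033943.11, chr2:119897228-119969581, + strand), a very large protein that carries both a bHLH-zipper and a T-box domain, had 19.91 and 27.34 TPM. These whole-gene values lay on both sides of those of Mnt, so the genes cannot be ordered on that scale. The protein-coding transcripts of Mga alone summed to 10.27 and 10.74 TPM, below Mnt in both libraries. Mnt and Mga together held 70.8% and 79.9% of the summed TPM of the 4 Mxd genes, Mnt and Mga. Myc exceeded that sum 2.19-fold and 2.10-fold, and exceeded Mnt alone 5.83-fold and 5.82-fold. The shares and the sum include the Mga transcripts not annotated as coding, at 9.64 and 16.59 TPM. Without those the sum would be lower and the excess of Myc over it larger in both libraries.

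The Mxd genes were low. Mxd3 (ENSMUSG00000021485.9, chr13:55325168-55329823, - strand), known as the member of its group that is active in dividing cells, had 9.32 TPM in replicate 1 and 5.01 TPM in replicate 2. Mxi1 (ENSMUSG00000025025.9, chr19:53310518-53375810, + strand) had 3.61 and 3.64 TPM. Mxd4 (ENSMUSG00000037235.9, chr5:34173883-34187720, - strand) had 3.92 and 3.19 TPM from 223 counts in each library. Both Mxd3 values lay above those of Mxi1 and Mxd4, whose values overlapped with each other. Mxd1 (ENSMUSG00000001156.7, chr6:86647042-86669161, - strand), the founding member that is known to rise as cells differentiate, had 0.66 and 0.71 TPM from 50 and 60 counts. It stayed under the 1 TPM detection limit in both libraries but above Mycl. By posterior mean TPM, a further deposited estimate, that order turned in replicate 1, with Mycl at 1.00 and Mxd1 at 0.63 TPM. In replicate 2 the 2 genes were nearly equal, with Mycl at 0.67 and Mxd1 at 0.68 TPM. That estimate also gave Mycn, which had 0 counts, 0.13 and 0.12 TPM. Mnt exceeded the 4 Mxd genes together 1.28-fold and 1.79-fold, and Myc exceeded them 7.48-fold and 10.4-fold.

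**Figure D1:**
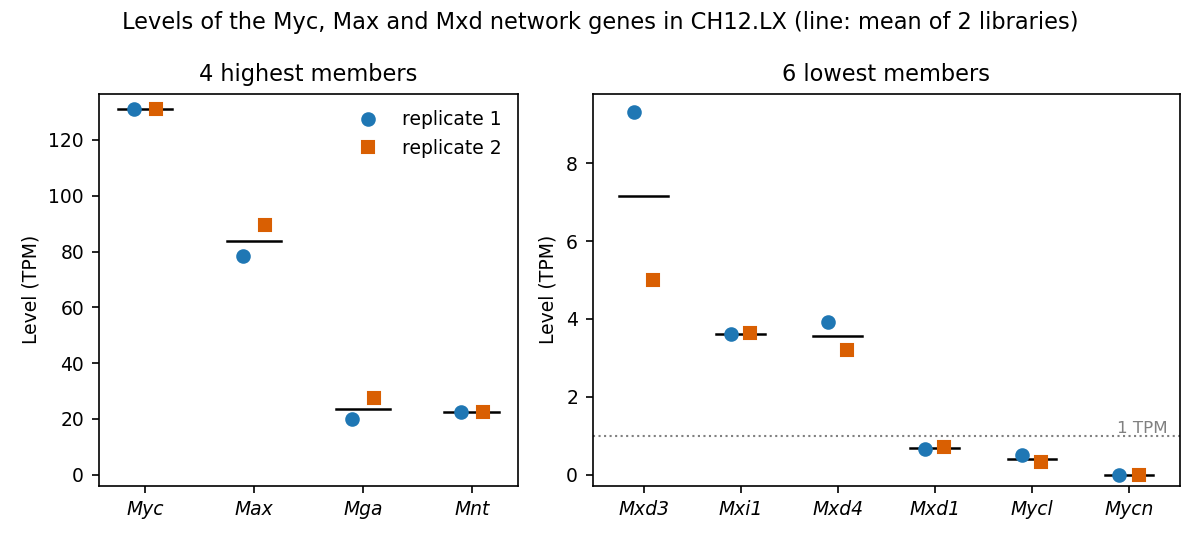
Level in TPM (vertical axis, linear, separate scales for the 4 highest and 6 lowest genes) of each network gene in replicate 1 (circle) and replicate 2 (square), with a line at the mean of the 2 libraries. Myc and Max stand apart from the rest, Mxd3 shows the widest relative gap among the genes above the 1 TPM line (dotted), and Mxd1, Mycl and Mycn lie below that line.

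By mean TPM the order was Myc, Max, Mga, Mnt, Mxd3, Mxi1, Mxd4, Mxd1, Mycl and Mycn. The neighbours Mga and Mnt, and Mxi1 and Mxd4, overlapped between libraries. The other neighbours did not, with 2 values each. The median of the 10317 detected protein-coding genes was 21.03 TPM. Of the network, Myc and Max lay above that value in both libraries, as did Mnt by a small margin, and Mga lay on both sides of it.

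Each gene's rounded counts in the libraries were set against the effective library sizes by an exact binomial test, two-sided, over 15340 genes with at least 10 counts summed, with Benjamini-Hochberg adjustment at 0.05. It compares these libraries, not conditions, and holds counting error only. It called 3 of the 9 network genes tested, beside 30.6% of all genes tested, a share near that of the members. Among genes averaging 1000 counts or more, which include Myc, Max, Mnt and Mga, it called 54.4%.

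Mxd3 fell in replicate 2, from 197.22 to 118.56 counts, a log2 ratio of -0.86 after scaling (adjusted p = 1.74e-06, exact binomial test). Calls lower in replicate 2 made up 15.9% of all genes tested. Its exons share 105 bases (4.43% of its exon bases) with Prelid1 on the opposite strand, a gene at 379 and 367 TPM. The sources used here do not say whether counting used strand, and the part of Prelid1 reads in Mxd3 was not tested. The posterior SD of the Mxd3 count, a measure of how surely reads were assigned, was 1.97% and 2.92% of the count.

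Max rose in replicate 2 from 2494 to 3165 counts, a log2 ratio of 0.21 (adjusted p = 8.17e-07, exact binomial test). Mga rose from 2376 to 2853 counts, a log2 ratio of 0.13 (adjusted p = 0.00684, exact binomial test). Calls higher in replicate 2 made up 14.7% of all genes tested. All 5 B cell markers also rose in replicate 2, and the share of counts on mitochondrial genes was 2.02% in replicate 1 and 3.04% in replicate 2. Their part in the differences of Max, Mga and Mxd3 was not tested.

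The other 6 genes tested did not pass. The log2 ratios were 0.01 for Myc (adjusted p = 0.835), 0.02 for Mnt (0.854), 0.03 for Mxi1 (0.896), 0.13 for Mxd1 (0.848), -0.14 for Mxd4 (0.523) and -0.82 for Mycl (0.291), all by the exact binomial test. Mycl thus had a ratio close to that of Mxd3 on far fewer counts. A negative binomial exact test in edgeR, which also holds the spread between the libraries (a biological coefficient of variation of 19.8% over all genes tested), called 0 of the 9 network genes, with 0 at an unadjusted p under 0.05, and 2.54% of all genes. Mxd3 came nearest there, at an unadjusted p of 0.0528 (edgeR exact test, adjusted p = 0.939).

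**Figure D2:**
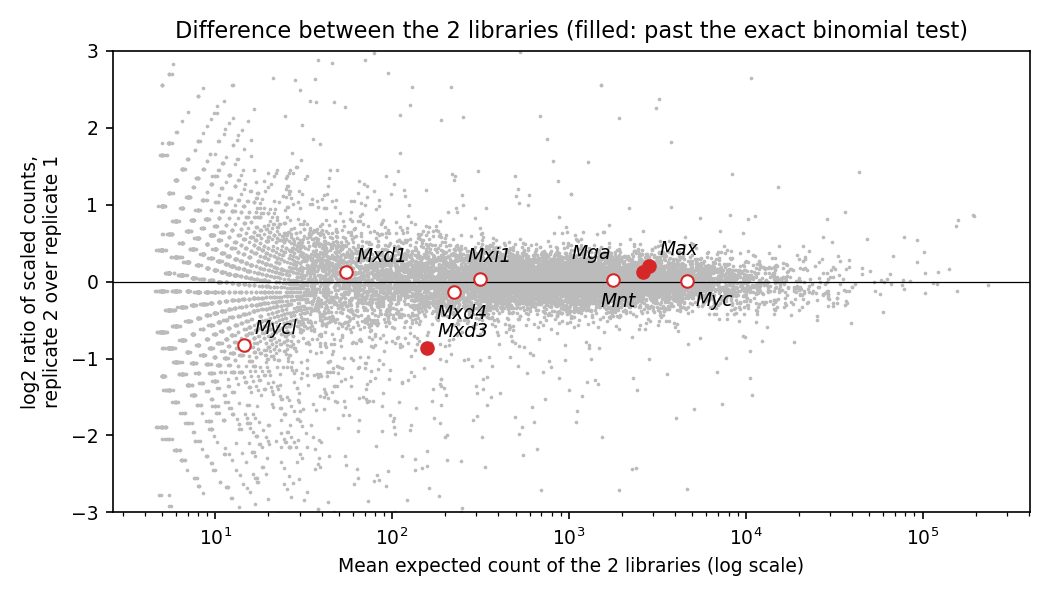
Log2 ratio of scaled counts, replicate 2 over replicate 1 (vertical axis), against the mean expected count of the 2 libraries (horizontal axis, log scale) for all genes tested (grey points) and the 9 network genes tested (red circles, filled where past the exact binomial test). Mxd3 at -0.86 is the filled circle farthest from 0, Mycl at -0.82 lies as low among sparse genes and is open, and 271 genes lie beyond the plotted range.

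The libraries were close in the Myc total and apart in its leading transcript. A transcript's share is its deposited percent of the gene. Myc-202 led with 66.27% in replicate 1 and 50.30% in replicate 2, or 58.3% ± 11.3. Its level was 86.8 and 65.9 TPM, and the deposited credibility bounds of 72.7 to 87.9 and 50.05 to 66.5 did not overlap. The sources used here do not state the probability level of those bounds. Nor need the bounds hold the TPM beside them. Mnt-201, at 22.48 and 22.52 TPM, lay above its own bounds of 19.8 to 21.9 and 20.1 to 22.1. Each library has its own bounds, which hold no spread between libraries, so a lack of overlap is no test of a difference. The difference in transcript shares was not tested.

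Myc-201 and Myc-205 have the same sequence of 2338 bases and differ only in the annotated coding start, at 61985922 in the first exon for Myc-201 and at 61987522 in the second for Myc-205. Reads cannot tell them apart, and each was given 6.46% and 12.10%. Summed, they held 12.9% in replicate 1 and 24.2% in replicate 2. The start at 61985922 would give the longer Myc protein with an extended N terminus, and no value here bears on which start was used. Myc-204, whose annotated start lies 2031 bases downstream and which lacks the first exon, held 17.88% and 23.69%. Its bounds of 15.7 to 29.3 TPM and 21.4 to 33.6 TPM overlapped. The bounds were near 0 to 15.1 and near 0 to 27.3 TPM for Myc-201, and near 0 to 15.9 and near 0 to 31.8 TPM for Myc-205. Since reads cannot tell these transcripts apart, the overlap of such bounds cannot show whether the pair differed. Summed, the pair stood at 16.92 and 31.72 TPM, and no bounds are at hand for the sum.

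The lower share of Myc-202 and the higher shares of the other 3 leading transcripts in replicate 2 left the gene total nearly equal. Myc-202 starts 173 bases downstream of Myc-201 and Myc-205, its second exon begins 3 bases later and its last exon ends 24 bases later. The split between them can rest on any of these. All of Myc-201, Myc-202, Myc-204 and Myc-205 hold the coding sequence from 61987522 onward. The deposited posterior SD of the count was 138 and 162 for Myc-202, against 3052 and 2577 counts.

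**Figure D3:**
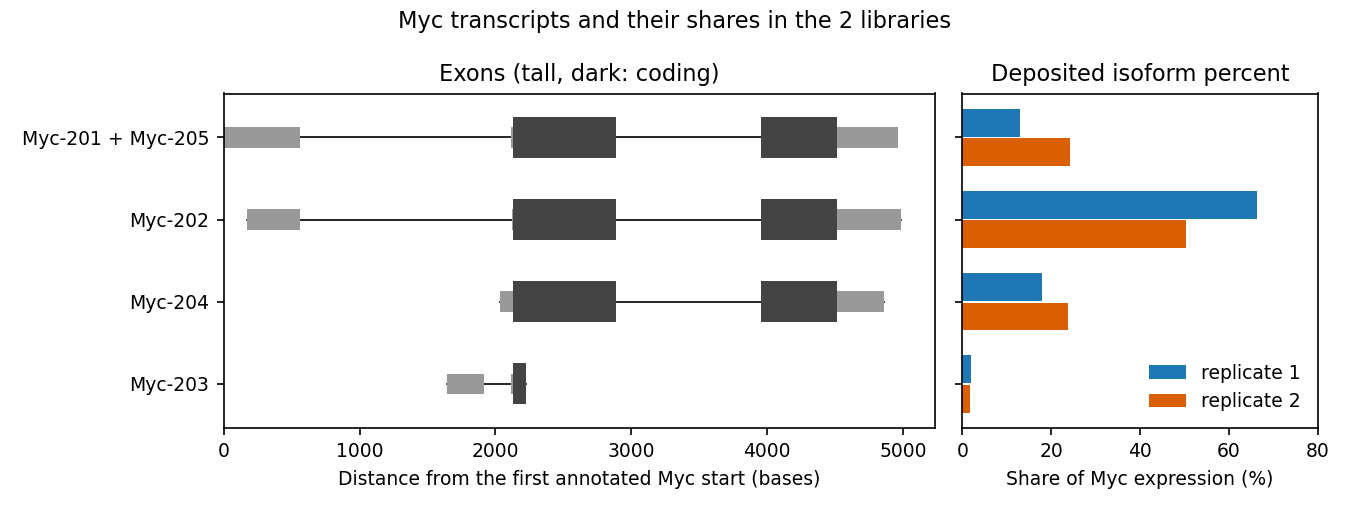
Left, exons of the Myc transcripts by distance in bases from the first annotated Myc start (tall dark boxes coding for Myc-205, Myc-202, Myc-204 and Myc-203, low grey boxes untranslated). Right, the deposited share of Myc expression in percent on each in replicate 1 and replicate 2, where Myc-202 goes from 66.27% to 50.30% while the summed Myc-201 and Myc-205 go from 12.9% to 24.2%.

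Max kept its split. Max-201, the form without the extra exon shown above, held 75.29% and 75.19%, or 75.2% ± 0.0707. Max-202, the form with GAAGAGCAACCGAGGTTTCAATCTGCG, held 24.71% and 24.81%. In TPM, Max-201 stood at 58.9 and 67.2 and Max-202 at 19.3 and 22.2, so both forms were higher in replicate 2 by a like factor. The bounds of each form overlapped between libraries. The posterior SD on each form was 111 and 120 counts, of 2494 and 3165 Max counts. Both forms code for the complete bHLH-zipper region, and the exon lies ahead of it near the N terminus.

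Mxi1 is read from alternative first exons. Its leading transcript, with 77.60% and 63.60%, starts 18940 bases downstream of the form with the upstream first exon. With a further transcript that starts 18895 bases downstream, it summed to 82.8% and 63.6%, and the upstream form held 17.2% and 36.4%. The counts behind the upstream form were 52.04 and 123.44, and its bounds of 0.216 to 1.10 and 0.689 to 1.83 TPM overlapped. Mxi1 exons share 194 bases with Gm10197 on the opposite strand, which was at 5.11 and 12.81 TPM, and its part in these reads was not tested. Among the remaining genes a single transcript led, with 100% of Mnt and a mean of 98.0% of Mxd3 and 93.3% of Mxd4. Mxd1 has only 1 measured transcript, so its share of 100% was fixed in advance. Mxd4 exons share 514 bases with Gm42846 on the opposite strand. Mycl-202 led Mycl with 59.83% and 51.54%, on 15.93 and 10 counts.

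The TPM of Mga rested largely on short transcripts. Its 5 protein-coding transcripts, of 6995 to 13931 bases, summed to 10.27 and 10.74 TPM. They took 92.1% and 86.7% of the Mga counts. The 10 other transcripts, of 649 to 3317 bases and not annotated as coding, took 188.48 and 378.48 counts but 9.64 and 16.59 TPM. The rise of Mga in TPM, 1.37-fold, was therefore larger than the 1.09-fold of its scaled counts. Mga-201, the leading transcript by mean share, held 19.34% and 18.18% but led in neither library. The coding transcripts Mga-204 and Mga-202, named after their values were seen, differed more. Mga-204 led replicate 1 with 19.98% and was at 0% in replicate 2, while Mga-202 held 12.24% and 21.10%. Mga-209, a short processed transcript also named after its values were seen, went from 33.16 to 165.44 counts. Its share went from 8.31% to 27.14% of Mga, the highest in replicate 2.

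The protein-coding Mga transcripts alone lay below Mnt in both libraries. The effective length of Mga, over which its reads were spread, went from 7286 bases in replicate 1 to 5729 in replicate 2. With the mean of those lengths used for both, Mga would stand at 22.3 and 24.1 TPM.

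**Figure D4:**
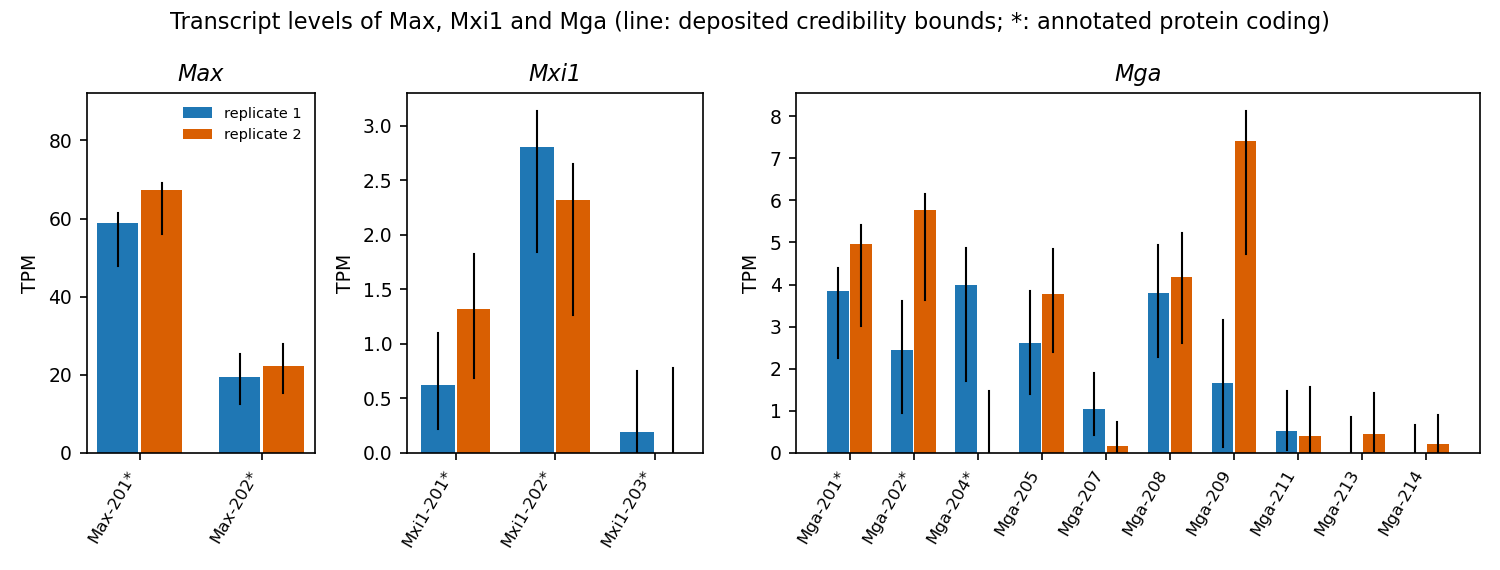
Level in TPM (vertical axis, separate scales) of each transcript of Max, Mxi1 and Mga with a value above 0, in replicate 1 (blue) and replicate 2 (orange), as bars, with the deposited credibility bounds as lines and protein-coding transcripts marked with an asterisk. Max-201 exceeds Max-202 in both libraries, and Mga-209 shows the widest gap among the Mga transcripts next to Mga-204, which is at 0 in replicate 2.

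The E-box that Myc and Max bind, CACGTG, was sought in RefSeq promoter windows of GRCm38.p6 from 250 bases before to 50 after each gene's start. The motif is its own reverse complement, so both strands read alike. It was present for 8.09% of 27025 genes and for 3 of the 9 network genes with a window (all but Myc). Of the lists described below, 7 of 19 Myc-induced and 3 of 10 Myc-repressed targets held it. So did 2 of 3 Mlx branch genes, 1 of 8 Mxd corepressors, 1 of 11 Myc cofactors and 1 of 7 Mga partners. None was found for 10 genes that act on Myc stability (0 of 10) and 7 other bHLH-zipper factors (0 of 7). The holders among the network were Max, Mnt and Mxd4, with the motif beginning at -3, -123 and -219 bases from the RefSeq start. They are printed to show the site, with the motif in capitals and 12 bases on each side, 5′ to 3′ on the gene's strand. Max is at chr12:76962234-76962263 (- strand), Mnt at chr11:74830789-74830818 (+ strand) and Mxd4 at chr5:34187912-34187941 (- strand).
Max: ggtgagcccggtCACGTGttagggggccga
Mnt: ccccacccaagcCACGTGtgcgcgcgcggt
Mxd4: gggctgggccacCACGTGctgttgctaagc
Each match describes letters in this window and shows no binding. The holders spanned the range from Max at 83.8 TPM to Mxd4 at 3.56 TPM.

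The genes around the network are given by lists. The counts below are calls of the exact binomial test, which called 30.6% of all genes tested (14.7% higher and 15.9% lower in replicate 2) and 54.4% of those averaging 1000 counts or more. The edgeR negative binomial exact test called 0 of the 101 genes of these lists and the marker lists that were tested (Mlxip, Pax5 and Cd247 among them), with 0 at an unadjusted p under 0.05. The Mlx branch is the parallel set in which Mlx takes the place of Max and pairs with the glucose-sensing factors Mlxip and Mlxipl as well as with some Mxd proteins and Mnt. Mlx had 33.44 and 37.22 TPM, or 0.427 and 0.417 of Max. Mlxip had 11.11 and 12.89 TPM, and Mlxipl had 0.02 and 0.00 TPM from 1 count in all. Of the branch, Mlxip rose in replicate 2 (log2 ratio 0.28, adjusted p = 4.25e-06, exact binomial test) and Mlx did not pass (log2 ratio 0.13, adjusted p = 0.0885, same test).

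The corepressors through which Mxd and Mnt act were all present, with 9 of 9 detected and a median of 144.6 TPM, above Max and every Mxd gene. Rbbp7, a histone-binding subunit, had 506.51 and 422.13 TPM and the deacetylase Hdac1 177.80 and 168.98 TPM. The scaffold Sin3a, which the Mxd proteins contact directly, was lowest at 25.15 and 24.01 TPM, close to Mnt. The other listed Sin3 gene, Sin3b, named after its values were seen, was higher at 81.84 and 84.90 TPM. Of the 9, 1 rose and 5 fell in replicate 2, where 8 of the 9 averaged 1000 counts or more (54.4% of such genes called).

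The cofactors of Myc were likewise all detected, 12 of 12 at a median of 58.3 TPM. The ATPases Ruvbl2 (169.48 and 157.70 TPM) and Ruvbl1 (142.17 and 117.28 TPM) led, and Kat5, the acetyltransferase of the same complex, was lowest at 22.58 and 24.03 TPM. Of the 12, 3 rose and 4 fell in replicate 2, beside 30.6% of all genes tested and 54.4% of those averaging 1000 counts or more, a share near the latter. Of the genes that act on the stability of Myc protein, 12 of 12 were detected at a median of 29.4 TPM. By mean TPM they ran from the ubiquitin ligase Huwe1 (147.30 and 121.19 TPM) down to the deubiquitinase Usp28 (4.45 and 4.54 TPM). Of those 12, 6 rose in replicate 2 by the exact binomial test, beside 14.7% of all genes tested that were called higher and 54.4% of genes with 1000 counts or more called either way. The other 6 did not pass.

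The partners of Mga in its Polycomb complex were detected in 9 of 9 cases at a median of 29.1 TPM, with the E2F partner Tfdp1 (259.67 and 269.94 TPM) and the heterochromatin protein Cbx3 (152.39 and 188.85 TPM) at the top. By mean TPM the E3 ligase subunit Ring1 was lowest, at 17.76 and 13.34 TPM, though Rybp was below it in replicate 1 at 16.50 TPM. Of the 9, 4 rose and 1 fell in replicate 2, against shares called of 30.6% overall and 54.4% at 1000 counts or more.

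Genes described as induced by Myc were detected in 24 of 24 cases at a median of 503 TPM. The nucleolar proteins Npm1 (5463.34 and 5053.06 TPM) and Ncl (2150.87 and 1943.41 TPM), the chromatin protein Ptma (4049.61 and 3754.16 TPM) and Odc1, the rate-limiting enzyme of polyamine synthesis (1549.60 and 1501.47 TPM), led the list. Tert, the telomerase catalytic subunit, was lowest at 4.38 and 4.62 TPM. Of the 24, 9 rose and 10 fell in replicate 2, beside 30.6% of all genes called and 54.4% at 1000 counts or more. The median log2 ratio was 0.01 against 0.00 over all genes tested, and Myc itself did not pass.

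Genes described as repressed by Myc were detected in 7 of 12 cases at a median of 7.82 TPM. The cell cycle inhibitor Cdkn1a had 42.79 and 43.47 TPM and its relative Cdkn1b 12.25 and 14.07 TPM. Between them lay Txnip (30.16 and 31.02 TPM) and Gadd45a (21.81 and 18.10 TPM). Of the 9 tested, 1 was called, Cdkn1b, which rose in replicate 2 (log2 ratio 0.30, adjusted p = 0.00141, exact binomial test). Over all genes tested 30.6% were called, 14.7% of them all as higher in replicate 2. Only 2 genes of this list averaged 1000 counts or more, so small differences in the others could be missed. The cell cycle inhibitor Cdkn2b and the myeloid factor Cebpa had 0.00 TPM in both libraries, and Cdkn1c, a further inhibitor named after its values were seen, also had 0 counts. Many genes of both target lists have other regulators, and a single line gives no state without Myc to compare with, so these levels describe the lists and not the action of Myc.

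The long noncoding RNA gene Pvt1 starts 47.6 kb downstream of Myc (chr15:62037986-62378096) and is known as a site of B lineage translocations. It had 40.21 and 32.61 TPM, from 891.32 and 971.61 counts, and its scaled counts did not differ (log2 ratio -0.01, adjusted p = 0.948, exact binomial test). Other bHLH-zipper factors that bind E-boxes without Max were detected in 8 of 9 cases at a median of 30.7 TPM. The sterol regulators Srebf2 (118.99 and 136.54 TPM) and Srebf1 (110.47 and 89.20 TPM) led, at levels near those of Max and Myc, while Tfec was at 0.07 and 0.00 TPM. Of the 8 tested, 3 rose and 1 fell in replicate 2, against shares called of 30.6% and 54.4% as for the other lists.

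**Figure D5:**
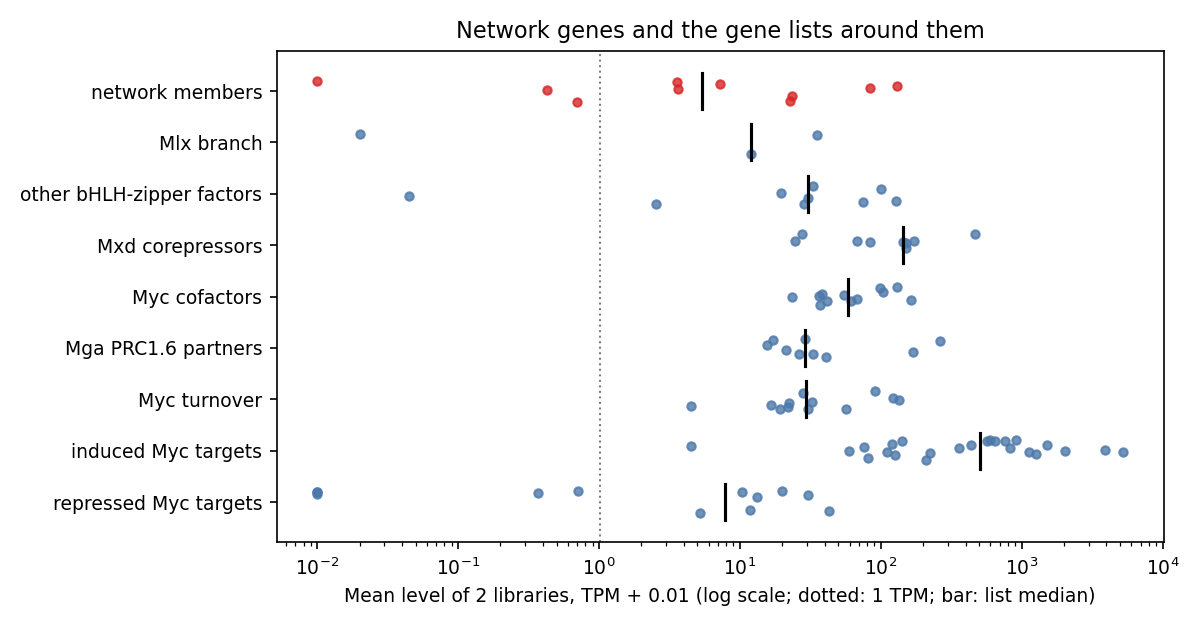
Mean level of the 2 libraries, as TPM + 0.01 on a log axis, of every gene in the network (red) and in the lists around it (blue), with each list's median as a bar and 1 TPM dotted. The network runs from Mycn at 0 (drawn at the 0.01 offset) to Myc at 131 TPM, the induced targets have the highest median at 503 TPM, and the repressed targets a median of 7.82 TPM.

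The labelled cell type was checked against markers. The B cell genes Cd79a, Cd79b, Ms4a1, Pax5 and Ebf1 were detected in 5 of 5 cases and summed to 1122 TPM in replicate 1 and 1225 TPM in replicate 2. Pax5, the B cell commitment factor, rose (log2 ratio 0.53, adjusted p = 2.88e-11, exact binomial test), a call lost in the negative binomial test. Markers of other cells were lower. The 5 T cell genes summed to 4.59 and 4.73 TPM. Of them 2 were detected, Cd3g (1.69 and 2.11) and Cd3d (1.14 and 1.63), while Cd3e was at 0.04 and 0.08. The 5 myeloid genes summed to 2.34 and 2.09 TPM, with 1 detected, Adgre1 (1.64 and 1.34), and Cd14 at 0.00. Stromal, epithelial and erythroid genes each summed to under 1.3 TPM in each library. Of the epithelial genes 1 was detected, Epcam (1.22 and 1.21). The T cell receptor chain gene Cd247 fell (log2 ratio -1.04, adjusted p = 0.0344, exact binomial test) with a posterior SD of up to 27.8% of its count.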

How the data were processed

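Each library has gene and transcript tables on mm10 with GENCODE M4, per the deposited notes. The aligner, quantifier and strand setting were not stated in the sources used here. Expected counts, as deposited, divide reads that match several genes among those genes. TPM and FPKM were corrected for length and depth by the authors. The deposited isoform values are percent of a gene's expression per transcript. Posterior mean counts are a further estimate, and their SD, the credibility bounds and the effective lengths were taken as scores in the unit of their column, as the authors deposited them, per the file headers.

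Names, types and coordinates came from GENCODE M21 (GRCm38, the mm10 assembly), for 42462 of 43346 gene entries (98.0%). Entries that name no gene (26345, with 0.0426% and 0.0539% of counts and 18255 and 22456 TPM) were left out of depths and tests. Chi-square per degree of freedom between the libraries was 33.2 (15340 genes), beyond counting noise, so they were kept as 2 samples.

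Expected counts were rounded and tested with scipy 1.17.1 against TMM effective library sizes of edgeR 4.0.16. Log2 ratios used scaled counts with a pseudocount of 0.5. The test was also run on simulated counts that held counting error only, where it called 12 of 15140 unchanged genes. It called 65 of 100 genes changed 1.5-fold and 81 of 100 changed 2-fold. The real libraries differed beyond counting noise, so the simulation gives no error rate for the calls here. Alternatives were DESeq2 1.42.0 size factors, library totals, at least 1 count, posterior mean counts, an edgeR negative binomial exact test with the dispersion of the 2 libraries as 1 group, other detection limits and units, and leaving out each library. Using 1 effective length for both libraries and summing Myc-201 with Myc-205 were chosen after seeing the data.

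The members and the lists were chosen with earlier results of these data known. Every network gene is described. From each list the text names up to 4 of the highest and 2 of the lowest genes by mean TPM and any gene called at an absolute log2 ratio of 0.5 or more. It names all of the Mlx branch and Pvt1, Myc and Max transcripts with a mean share of at least 5%, and the leading transcript of the other genes. Proteins are not printed here, and a further B cell marker is not reported here.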

Additional observations from a re-analysis of the deposited data

How the results depend on the processing

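No paired analysis was possible because the labels give 1 group. The count of detected network genes was 7 with either library alone, 8 at 0.5 TPM, 5 at 5 TPM and 7 by FPKM or posterior mean TPM at 1. The same 3 network genes (Max, Mxd3 and Mga) were called under DESeq2 size factors, library totals, the lower count filter and posterior mean counts. The negative binomial exact test called 0 of them and 389 of 15340 genes, against 4692. Of the genes called, 47.9% were higher in replicate 2, 51.5% with DESeq2 size factors, 40.5% with library totals and 26.5% by the negative binomial test. With a single library, the Max share of network TPM ranged from 29.0% to 31.6%, Myc-202 from 50.3% to 66.3% of Myc and Max-201 from 75.19% to 75.29% of Max. From posterior mean TPM, Max-201 held 74.4%, a move beyond its SD between libraries. The posterior mean level of Mycl was 0.835 TPM against 0.415 TPM, above Mxd1 at 0.655 TPM by that estimate. Leaving out mitochondrial genes and entries that name no gene raised all TPM by 1.06 times in replicate 1 and 1.09 times in replicate 2. The mean Myc level of 131 TPM became 140 TPM in that way and was 124 TPM by posterior mean TPM. Both moves exceeded its SD of 0.0495 TPM between libraries. The same held for Mnt (22.5 TPM against 24.1 and 22.47) and Mxi1 (3.625 TPM against 3.89 and 3.45). Mxd1 moved beyond its SD with the rescaling, from 0.685 to 0.735 TPM. The cause of these changes was not tested. With 18 and 11 counts for Mycl and 50 and 60 for Mxd1, depth limits what can be said of their differences.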
